A study of Mus musculus with 39 samples.

Results

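Satellite cells sorted from injured muscle were compared with the injured whole muscle itself, both from wild-type mice and both at day 1. The comparison rests on 6 of the 39 libraries of the series, 3 of satellite cells and 3 of whole tibialis anterior, and on the 13049 of 55011 gene symbols that had 10 or more counts in at least 3 of the 6 libraries. All 6 libraries came from mice that had been injected intraperitoneally with diphtheria toxin and had been injured in the hindlimb with cardiotoxin, a peptide of snake venom that kills the fibres and spares most satellite cells. Another genotype, Tcrd-DTR, which carries the receptor for the toxin in γδ T cells and loses those cells under it, gave the same pair of materials at day 1 in 6 further libraries (3 of satellite cells and 3 of muscle) after the same toxin and the same injury. The satellite cells were released from muscle by enzymes and sorted by flow cytometry at 1000 cells per library. Whole muscle was lysed directly in Trizol, and 2 ng of its RNA were used per library. Sorted cells and tissue RNA therefore differed in handling and input as well as in cell content, and these cannot be told apart in any difference reported. The sources used here do not give the surface proteins of the sort or the sex and age of the mice.

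Satellite cells are the stem cells of skeletal muscle. They lie between the fibre and its basal lamina, carry the transcription factor Pax7, and rest outside the cell cycle until injury. After injury they turn on the determination factors Myf5 and Myod1, enter the cell cycle as myoblasts, and later turn on Myog, leave the cycle and fuse into new fibres. Notch signalling and the calcitonin receptor are known for holding them at rest, and hepatocyte growth factor and fibroblast growth factors for activating them.

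The 3 satellite cell libraries held 5019474 to 5469950 counts and the 3 muscle libraries 4433021 to 5755915. Levels are given as CPM, the counts of a gene scaled to the size of its library with the TMM method, which sets the bulk of genes equal between libraries. Where 2 values are set against each other, satellite cells come first, single values stand in the order of libraries 1 to 3, and means are given ± SD (n = 3). Satellite cell libraries had 20327 to 22056 genes with a count, against 28407 to 29368 in muscle, where the 20 most abundant genes took 24% to 28.2% of the counts, against 9.07% to 10.1% in satellite cells. Mitochondrially encoded genes took 0.257% of the counts in satellite cell library 3 and 0.791% and 0.858% in the others, against 1.59% to 3.35% in muscle. Olfactory and vomeronasal receptor genes, which neither material is known to use, summed to 56 to 112 CPM in satellite cells and 510 to 844 CPM in muscle, and their part in any result was not tested.

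By edgeR's quasi-likelihood test (Benjamini-Hochberg adjusted p under 0.05), 3672 genes were higher in satellite cells (28.1% of those tested) and 4210 were lower (32.3%). The counts of called members in the gene lists below stand against these shares, and a list near them is not set apart. A difference of 4-fold or more was met by 801 higher genes (6.14%) and 1935 lower genes (14.8%). The median log2 difference over all genes tested, satellite cells minus muscle, was -0.06. Scaling by library size alone moved every difference up by about 0.40, to a median of 0.34, and the calls to 5174 higher and 3130 lower, so differences smaller than this depend on the scaling. In 159 tested genes the satellite cells had no counts at all, and in 3 the muscle had none. A gene near 0 in one material could pass the filter only through the other, so the direction of its difference was set by the filter. In all, 60.4% of the genes tested passed in either direction. A call therefore sets a gene apart from few others, and the size of its difference is given throughout. The satellite cell and muscle libraries did not overlap in 8558 of the genes tested (65.6%). Separation of the libraries is thus common here and does not by itself set a gene apart.

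**Figure D1:**
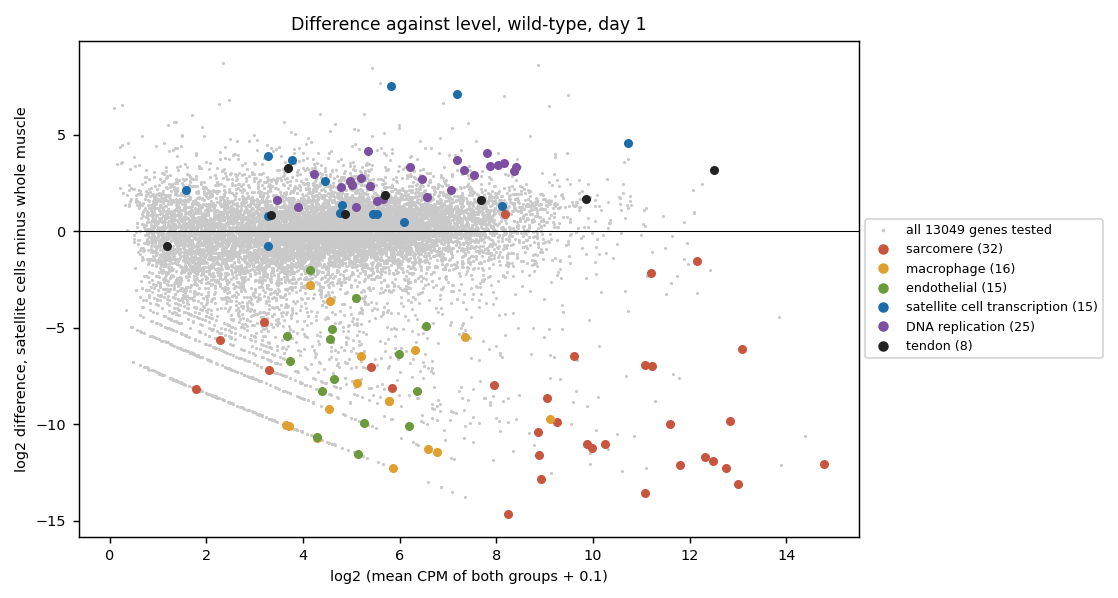
Each point is 1 of the 13049 genes tested, with its mean level in both groups on the horizontal axis (log2 of CPM + 0.1) and its log2 difference, satellite cells minus whole muscle, on the vertical axis. Coloured points are members of 6 gene lists: macrophage, endothelial and all but 1 of the sarcomere genes lie below 0, all 25 DNA replication genes lie above it, and so do all but 1 of the satellite cell and all but 1 of the tendon genes. The slanting lines of points at the lower left are genes with 0 or few counts in satellite cells, whose fitted difference is not a bound.

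The genes that define satellite cells stood far above the tissue. Of 15 tested members of a list of satellite cell transcription factors, 13 were higher and 0 lower, with a median log2 difference of 1.36. Members near 0 in muscle, such as *Myf5*, passed the filter through satellite cells alone, so their direction was fixed in advance. The same holds for other genes below that were near 0 in muscle. *Pax7*, which marks the lineage, was at 20.7, 20.2 and 34.2 CPM in the 3 satellite cell libraries and at 1.93, 1.71 and 2.04 CPM in the 3 muscle libraries. Every satellite cell library was above every muscle library, with the highest value in library 3, and the log2 difference was 3.71 (SE 0.36, adjusted p = 7.53e-07). Its relative *Pax3* was scarce in both, at 4.7 ± 0.683 CPM against 1.1 ± 0.773 CPM, with a log2 difference of 2.15 (SE 0.55, adjusted p = 0.00365) that came to 2.81 without muscle library 1. In bulk RNA, fewer cells of a type and less RNA per cell cannot be told apart.

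*Myf5*, a determination factor, was read at 128, 100.2 and 107 CPM in satellite cells and at 0, 0.57 and 1.02 CPM in muscle, where it had 8 counts in all, a log2 difference of 7.54 (SE 0.37, adjusted p = 6.86e-10) that came to 8.34 without muscle library 3. *Myod1*, the determination factor that marks activated cells, was the eighth most abundant mRNA of the satellite cell libraries by CPM, mitochondrially encoded genes left aside. Its level was 3007, 2776 and 4021 CPM there and 181, 118 and 109 CPM in muscle, 24-fold apart. The groups lay far apart for both genes, and satellite cell library 3 had the most *Myod1*. Per kilobase of transcript, *Myod1* in satellite cells reached 1756 CPM, *Myf5* 53.7 and *Pax7* 4.28.

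*Msc*, a repressor that competes with the determination factors for E-boxes, was at 276, 274 and 319 CPM against 1.93, 2.28 and 1.84, a log2 difference of 7.14 (SE 0.23, adjusted p = 1.20e-11). *Sox8*, known in satellite cells as a brake on differentiation, was at 18 ± 0.638 CPM against 1.21 ± 0.39 CPM. The Notch targets *Hey1* and *Heyl*, which keep satellite cells undifferentiated, differed by 2.59 (SE 0.31) and 1.36 (SE 0.25) on the log2 scale. Among the homeobox partners that act upstream of the determination factors, *Eya1* was 1.95-fold higher. *Six4* (log2 0.78) and *Eya4* (log2 -0.76) did not pass. *Eya4* passed in 4 of the 15 alternative fits and *Six4* in 1. Within the list the members named here that passed therefore differed from 186-fold for *Myf5* to 1.95-fold for *Eya1*.

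**Figure D2:**
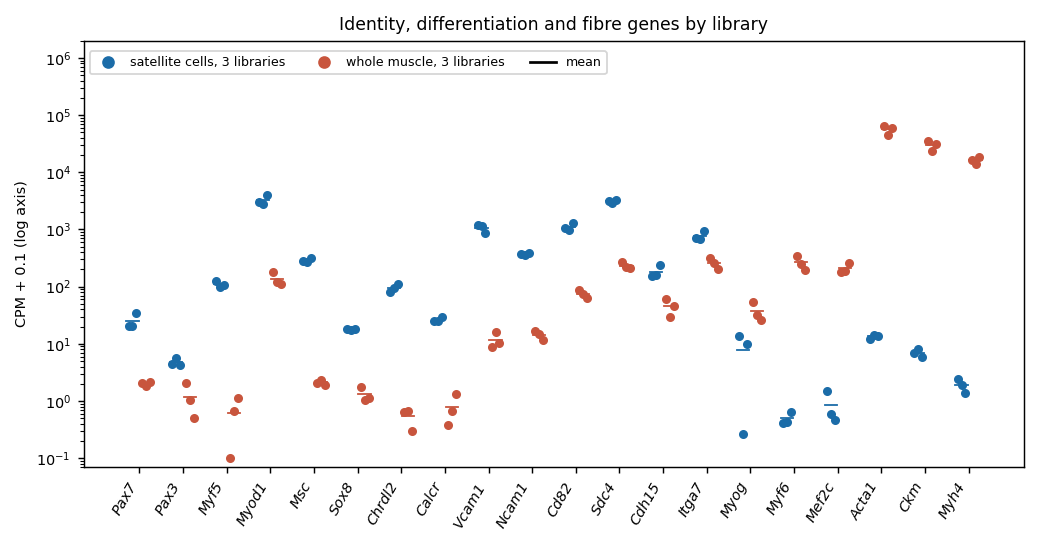
CPM + 0.1 on a log axis for 20 genes in each satellite cell library (blue) and each whole muscle library (red), with a bar at each mean. From Pax7 to Itga7 all blue points lie above all red ones, for Myog to Myh4 all lie below, and Myog in satellite cell library 2 stands near 0.

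Surface proteins used to recognise satellite cells followed the same direction. Of 20 tested, 16 were higher and 2 lower, with a median log2 difference of 2.87. Some of these proteins are common sorting targets, and any that was used in the sort is no finding here. *Vcam1*, an adhesion molecule of activated and resting satellite cells, was at 1217, 1151 and 868 CPM in satellite cells and 8.84, 16.1 and 10.2 CPM in muscle, 90.6-fold apart with no overlap. *Sdc4*, a heparan sulfate proteoglycan that presents growth factors to their receptors, was at 3105, 2950.3 and 3340.4 CPM against 269, 218 and 216. *Cd82*, a tetraspanin, stood at 1109.7 ± 151 CPM against 75.6 ± 12.9 CPM, and *Ncam1*, an adhesion molecule of myogenic cells and nerves, at 370.1 ± 11.2 CPM against 14.4 ± 2.74 CPM.

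*Cdh15* (M-cadherin, which joins the satellite cell to its fibre) and *Itga7* (the laminin-binding integrin that anchors it to the basal lamina) differed less. *Cdh15* was at 154, 157 and 239 CPM against 61, 29.6 and 45.1, and *Itga7* at 696, 694 and 958 CPM against 314, 261 and 204. Their log2 differences were 2.03 (SE 0.26, adjusted p = 9.71e-06) and 1.59 (SE 0.20, adjusted p = 1.12e-05). Both are also made by fibres. *Chodl*, a membrane lectin, differed by 4.68 (SE 0.29). The members that were lower were *Sdc3*, at 45.6 ± 4.04 CPM against 94.8 ± 21.1 CPM, and the neuregulin receptor *Erbb3*, at 0.74 ± 0.328 CPM against 4.25 ± 1.25 CPM.

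The receptors through which satellite cells are held at rest or woken were present together. *Calcr*, the calcitonin receptor of resting satellite cells, was at 24.7, 24.7 and 28.9 CPM in satellite cells and at 0.276, 0.57 and 1.22 CPM in muscle, a log2 difference of 5.13 (SE 0.41, adjusted p = 1.05e-07) that came to 5.84 without muscle library 3. *Fgfr4* stood at 77.7, 74.9 and 144 CPM against 2.76, 4.56 and 1.02, highest in satellite cell library 3, and its log2 difference of 5.12 came to 5.81 without muscle library 2. *Fgfr1* was 7.65-fold higher and *Met*, the receptor for hepatocyte growth factor, 6.96-fold higher, at 137 ± 16.3 CPM against 19.7 ± 2.5 CPM. *Egfr* was at 175, 175 and 173 CPM in the 3 satellite cell libraries and 28.4, 40.8 and 36.7 CPM in muscle. Over the list of 33 growth factor and cytokine receptors, 10 were higher and 7 lower, with a median of 0.15, so the list as a whole lay near the median of all genes. Among all genes tested 28.1% were higher and 32.3% lower. For the genes named here no library of one group reached the range of the other.

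The series asks about interleukin 17A, and its receptor chains were measured in the cells as well. *Il17ra* was at 124, 110.2 and 139.7 CPM in satellite cells and 28.2, 54.9 and 50.8 CPM in muscle, with a log2 difference of 1.47 (SE 0.23, adjusted p = 6.53e-05). *Il17rc*, the second chain, was at 44.3, 25.2 and 43.4 CPM against 27.6, 18.4 and 20.6. The libraries overlapped for *Il17rc*, whose log2 difference of 0.77 (SE 0.26, adjusted p = 0.0201) was lost in 4 of 15 alternative fits. *Osmr*, the oncostatin M receptor, was 3.28-fold higher.

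Genes linked to quiescence were divided. Of 18 tested, 10 were higher and 4 lower, with a median log2 difference of 1.42. *Chrdl2*, a secreted binder of bone morphogenetic proteins, was at 81.7, 94.2 and 113 CPM in satellite cells and had 6 counts in the 3 muscle libraries together, at 0.552, 0.57 and 0.204 CPM, a log2 difference of 7.71 (SE 0.34, adjusted p = 1.90e-10). *Spry1*, an inhibitor of growth factor signalling needed for return to rest, was at 36.5 ± 1.45 CPM against 7.11 ± 2.07 CPM. *Gpx3*, a secreted peroxidase, reached 2579.7, 2697 and 3526 CPM against 251, 201 and 288, and *Rgs4*, which shortens G protein signals, was 5.76-fold higher. Lower were *Pdk4*, a brake on glucose oxidation that fibres make (35.4 ± 4.12 CPM against 331 ± 83 CPM), and *Tek*, which is also an endothelial receptor (6.99 ± 1.11 CPM against 28 ± 7.78 CPM). The other lower members were *Meox2*, at a mean of 10.5 CPM against 35.5 CPM, and *Nfix*, at 27.9 CPM against 45.7 CPM.

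Notch genes were divided as well, 9 higher and 7 lower of 23 tested, with a median of 0.54. The ligand *Dll1* was at 57.8, 52.3 and 49.9 CPM in satellite cells against 15.5, 10.3 and 5.91 in muscle. The endothelial members went the other way: the ligand *Dll4* had 2 counts in the 3 satellite cell libraries and 420 in muscle, a ratio of 274 in favour of muscle (95% counting interval 75.5 to 2272). *Notch4*, a receptor of vessels, was at 0.21 ± 0.239 CPM against 20.6 ± 5.66 CPM, and its log2 difference of -6.39 came to -7.54 without satellite cell library 1. *Hes1*, a target of the pathway in many cells, was also lower, at 1.43 ± 0.336 CPM against 5.65 ± 1.8 CPM, while *Hey1* and *Heyl* were higher as given above.

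Most tested genes of a differentiation and fusion list were lower in satellite cells than in muscle. Muscle holds fibres, which also make some of these genes, and *Ttn* is in the sarcomere list as well. The counts therefore do not show the state of this programme in the cells alone, and the part of the fibres was not tested. Of 20 tested genes of differentiation and fusion, 19 were lower in satellite cells and 1 was higher, with a median log2 difference of -3.75; *Mymk*, *Mymx*, *Myh3*, *Myh8* and *Chrng* had too few counts to be tested. *Myog*, which commits myoblasts to differentiate, was at 13.5, 0.161 and 9.94 CPM in satellite cells and at 53.6, 31.3 and 25.9 CPM in muscle. Satellite cell library 2 was nearly without it, so the libraries of this group differed widely among themselves, and the log2 difference of -2.22 (SE 0.75, adjusted p = 0.0269) was lost in 4 of 15 alternative fits, DESeq2 (adjusted p = 0.119) and the fit without muscle library 1 (log2 -1.81) among them. Without satellite cell library 1 it was -2.89. *Myf6*, the determination factor of mature fibres, was clearer, at 0.313, 0.323 and 0.552 CPM against 349.5, 247 and 198, 641-fold apart. *Mef2c*, the partner of the determination factors in fibres, was at 0.754 ± 0.571 CPM against 209.7 ± 43.8 CPM, a log2 difference of -8.04 (-8.85 without satellite cell library 1). The single higher member was *Lrrn1*, a membrane protein, at 25.3 ± 4.69 CPM against 4.84 ± 0.442 CPM.

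Parts of the neuromuscular junction that myoblasts are known to make were higher, and the list of 15 tested split into 6 higher and 5 lower (median log2 0.51). *Chrna1*, the acetylcholine receptor subunit shared by embryonic and adult receptors, was at 230.4, 184 and 249 CPM in satellite cells and 23.2, 25.8 and 16.3 CPM in muscle. *Musk*, the kinase that clusters those receptors, was at 395 ± 64.6 CPM against 168 ± 23.3 CPM.

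Every tested gene of DNA replication (25 of 25) and of mitosis (22 of 22) was higher in satellite cells, with medians of 2.79 and 2.83 on the log2 scale. *Mcm5* and *Mcm6*, subunits of the helicase that opens replication origins, were at 437, 426 and 582 CPM and 600.4, 616 and 549 CPM in satellite cells, against 39.5, 49.6 and 45.5 and 61.8, 77.7 and 59.5 CPM in muscle. *Cdc6*, which loads that helicase, was at 67.5, 71.3 and 90.2 CPM against 3.31, 4.94 and 4.28, a log2 difference of 4.16 (SE 0.25, adjusted p = 5.29e-09). *Rrm2*, the regulated subunit of ribonucleotide reductase, was 16.6-fold higher and *Uhrf1*, which carries DNA methylation through replication, 13.2-fold. All 3 satellite cell libraries were above all 3 muscle libraries for each of these genes. Among all genes tested, 65.6% had no overlap in either direction.

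Mitotic genes had a like median difference. *Mki67*, the proliferation antigen, was at 46.5, 50 and 59.1 CPM against 8.28, 11 and 10.4, *Top2a* at 157, 161 and 103 against 13, 17.3 and 17.3, and *Ccnb1*, the mitotic cyclin, at 31.8, 20.8 and 36.1 against 2.21, 2.28 and 2.24. Per kilobase, *Mcm5* (143 CPM) and *Mcm6* (135 CPM) in satellite cells stood above *Ccnb1* (11.9 CPM) and *Mki67* (5.16 CPM). The lists overlapped in level, however. By CPM, *Ccna2* and *Top2a* of mitosis averaged 141 and 140 in satellite cells, and *Gins1* and *E2f1* of replication 16.7 and 20.9. Of the cyclins that drive entry into the cycle, *Ccnd1* was at 132 ± 23.7 CPM against 22.6 ± 3.32 CPM and higher, and *Ccnd2* at 29.2 ± 6.21 CPM against 59.6 ± 5.32 CPM and lower. *Cdk4*, their kinase, was 4.38-fold higher. Among 16 tested inhibitors and p53 targets 3 were higher and 8 lower (median log2 -0.49). *Cdkn1a*, the inhibitor that p53 and differentiation induce, was among the lower, at 221, 295 and 358 CPM against 651, 480.4 and 355, with 1 satellite cell library above the lowest muscle library. Its log2 difference of -0.77 was no longer past the threshold with library size alone (-0.36), without satellite cell library 1 (-0.60) or without muscle library 1 (-0.46).

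The promoters of 3 of the origin genes are shown because the replication genes moved together and E2F factors are known to control such genes at the start of S phase. The 3 were taken from those that hold the letters of an E2F site, and the promoters of *Mcm2* and *Mcm3* in the table do not hold them. Each is the 250 bases before the RefSeq start (GRCm38.p6), read 5′ to 3′ on the gene's strand, with capitals at matches of TTTNNCGC, a core of E2F sites, on either strand. Mcm5 lies at chr8:75109259-75109508 (plus strand), Mcm6 at chr1:128359706-128359955 (minus strand) and Cdc6 at chr11:98907901-98908150 (plus strand).
Mcm5: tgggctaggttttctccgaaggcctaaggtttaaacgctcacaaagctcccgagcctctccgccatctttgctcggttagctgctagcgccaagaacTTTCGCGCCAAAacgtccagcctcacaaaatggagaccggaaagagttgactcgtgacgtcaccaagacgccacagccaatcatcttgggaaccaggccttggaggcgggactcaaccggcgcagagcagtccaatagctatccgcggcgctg
Mcm6: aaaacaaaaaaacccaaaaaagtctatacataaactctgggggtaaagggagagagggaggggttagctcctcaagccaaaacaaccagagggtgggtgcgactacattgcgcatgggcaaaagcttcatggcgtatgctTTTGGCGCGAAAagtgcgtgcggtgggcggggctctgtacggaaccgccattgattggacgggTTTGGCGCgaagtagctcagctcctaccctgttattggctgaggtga
Cdc6: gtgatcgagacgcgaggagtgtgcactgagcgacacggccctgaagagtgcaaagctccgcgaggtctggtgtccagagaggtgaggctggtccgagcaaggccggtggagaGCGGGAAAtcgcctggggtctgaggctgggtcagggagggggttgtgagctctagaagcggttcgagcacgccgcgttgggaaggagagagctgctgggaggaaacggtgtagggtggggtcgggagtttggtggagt
*Mcm5* has 2 matches, which overlap on opposite strands, *Mcm6* has 3 and *Cdc6* 1. These letters were found in 7 of 20 replication promoters in the table (35%), against 8.23% of the 9965 promoters of tested genes, 13.1% of those of genes 4-fold or more higher and 4.34% of those 4-fold or more lower. They were also in 1 of 19 promoters of the mitosis list (5.26%). The letters are a description, and no binding was measured.

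Genes for making ribosomes were higher in satellite cells as well. Of 25 tested genes of ribosome biogenesis 24 were higher and 0 lower (median log2 1.44), as were 30 of 30 ribosomal protein genes (median log2 1.39). *Nop56*, a core protein of the particles that methylate ribosomal RNA, was at 592, 583 and 667 CPM against 137, 133 and 111, and *Ncl*, nucleolin, at 1705 ± 216 CPM against 459.9 ± 30.9 CPM. *Rpl3* was 4.01-fold higher and *Rplp0* 2.14-fold. *Myc*, known for driving both groups of genes, was at 925, 971 and 1270.3 CPM in satellite cells and 178, 178 and 140.3 CPM in muscle, a log2 difference of 2.67 (SE 0.19, adjusted p = 3.91e-08). Ribosomal protein genes have many processed copies in the genome, so reads of single members may be split by the counting.

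The list of integrated stress response and amino acid supply genes, many of which the factor Atf4 is known to control, had 14 higher and 2 lower of 18 (median 1.57). *Phgdh*, the first enzyme of serine synthesis, was at 235, 194 and 302 CPM against 19.9, 13.3 and 14.3, 15.5-fold apart. *Mthfd2*, a mitochondrial folate enzyme of dividing cells, was at 255 ± 36.7 CPM against 51.3 ± 4.07 CPM, and *Asns*, asparagine synthetase, at 101 ± 24.1 CPM against 23.7 ± 3.02 CPM. *Vldlr*, a lipoprotein receptor of oxidative tissue, was lower, at 34.5 ± 4.57 CPM against 235 ± 28 CPM. Imprinted genes, several of which mark growing tissue and satellite cells, were higher in 13 of 17. *Grb10* was at 140 ± 6.94 CPM against 29.9 ± 8.54 CPM, *Mest* at 85.4 ± 21.6 CPM against 20.6 ± 4.59 CPM and *Meg3* at 83.5 ± 14.1 CPM against 21.4 ± 4.75 CPM. The 1 lower member was *H19*, at 18.8, 22.4 and 42.7 CPM in satellite cells against 137, 84.3 and 123 in muscle.

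Several of the furthest genes encode secreted signals. Of the 15 genes with the largest folds at 20 CPM or more and no overlap, the first was *Erfe* (erythroferrone, a hormone known for lowering hepcidin), at 859.9, 852 and 1057 CPM in satellite cells and 2.76, 0.76 and 3.67 CPM in muscle, 391-fold apart (log2 8.61, SE 0.35, adjusted p = 7.34e-11). *Lif*, a cytokine of the interleukin 6 family that acts on myoblasts, was at 117, 59.4 and 78.2 CPM and had 3 counts in muscle, a ratio of 394 (95% counting interval 134 to 1911). *Clcf1*, another cytokine of that family, was at 287, 331 and 386 CPM against 8.28, 7.97 and 4.69 in muscle. *Il6* itself was at 34.9, 32.9 and 12.3 CPM against 0.276, 1.71 and 1.84, lowest in satellite cell library 3 but above every muscle library.

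*Gal*, the neuropeptide galanin, was at 633, 520.3 and 559 CPM in satellite cells and 3.31, 5.32 and 4.28 in muscle, 129.5-fold apart. *Edn3* (endothelin 3) was at 23.7 ± 6.5 CPM against 0.447 ± 0.0925 CPM, *Ntn5* (a netrin) at 40.2 ± 8.88 CPM against 0.544 ± 0.942 CPM, the bradykinin receptor *Bdkrb1* at 75.7 ± 17.9 CPM against 1.1 ± 0.791 CPM and *Arl4d*, a small GTPase, at 237 ± 24 CPM against 2.21 ± 1 CPM. With so few muscle counts the log2 differences hang on single muscle libraries: that of *Ntn5* was 6.06 and 5.46 without muscle library 2, while all 8 of its muscle counts came from library 3, and that of *Bdkrb1* was 6.09 and 6.73 without muscle library 2. Over the list of 32 growth factors 10 were higher and 12 lower (median log2 0.12), near the 28.1% and 32.3% of all genes tested. *Inhba*, the activin A subunit, was at 212, 297 and 279.6 CPM against 9.11, 5.89 and 4.69, and *Csf1*, the growth factor of macrophages, at 344, 367 and 462 CPM against 47.5, 79.9 and 75.4. The ligands of the epidermal growth factor receptor *Areg* and *Ereg* had 130 and 172 counts in satellite cells and 2 and 1 in muscle, ratios of 49.8 (interval 13.5 to 415) and 132 (interval 23.3 to 5231). *Igf1* was lower, at 24.6 ± 2.34 CPM against 49.2 ± 6.68 CPM, and *Mstn*, the myostatin that fibres secrete, had 1 count in satellite cells and 216 in muscle, a ratio of 282 in favour of muscle (interval 50.1 to 11195).

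Chemokines were split, 8 higher and 8 lower of 19 (median log2 0.37). *Cxcl1*, *Cxcl2*, *Cxcl3* and *Cxcl5*, ligands of the neutrophil receptor Cxcr2, were all higher. *Cxcl1* was at 1604, 1496 and 1154 CPM in satellite cells and 10.5, 12.3 and 8.36 CPM in muscle, 136-fold apart. *Cxcl3* was at 125 ± 17.4 CPM against 2.51 ± 2.23 CPM, *Cxcl2* at 139 ± 11.3 CPM against 9.41 ± 8.95 CPM and *Cxcl5* at 170.3 ± 72.4 CPM against 26.6 ± 10.2 CPM. Muscle library 2 held most of the *Cxcl2* and *Cxcl3* of tissue, and without it their log2 differences came to 5.08 and 6.53 from 3.83 and 5.53. *Ccl2*, which recruits monocytes, was at 926, 726 and 691 CPM against 150.5, 268 and 198. *Ccl6* and *Ccl8*, which macrophages make, were at 0.468 ± 0.46 CPM against 368 ± 169 CPM and 0.872 ± 0.947 CPM against 88.8 ± 10.4 CPM, and *Cxcl12*, which holds stem cells in their niches, was lower at 158 ± 10.6 CPM against 289.6 ± 21.3 CPM. The log2 difference of *Ccl6* ran from -10.46 to -9.01 and that of *Ccl8* from -7.91 to -6.02 when 1 satellite cell library was left out.

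Stress and dissociation genes were mixed. Enzymatic release is known to induce immediate early and heat shock genes, and its part in these values was not tested. Of 29 immediate early genes 14 were higher and 6 lower (median 0.39, close to the shift between scalings). *Fos* was at 34.1, 60.8 and 77.5 CPM against 28.2, 38 and 33.8 with overlap, a difference no longer past the threshold without satellite cell library 3 (log2 0.50 from 0.78) or without muscle library 1 (log2 0.73). *Fosl1*, another member of its family, was at 207 ± 24.1 CPM against 33.6 ± 8.17 CPM, *Atf3*, a stress-induced factor, at 45.1, 57.8 and 43.6 CPM against 324, 435 and 304 and *Nr4a1* at 102 ± 40.4 CPM against 223 ± 19.2 CPM, the last 2 lower in satellite cells. Of 18 heat shock genes 11 were higher (median log2 0.93), among them *Hsph1* (576 ± 48.8 CPM against 149 ± 13.3 CPM) and *Dnajb1* (143 ± 12.7 CPM against 21.2 ± 3.12 CPM). The 5 lower ones included the small chaperones of fibres *Cryab* (185 ± 33.7 CPM against 3191 ± 569 CPM), *Hspb1* (154 ± 39.5 CPM against 966 ± 35.6 CPM) and *Hspb7* (3.31 ± 1.89 CPM against 1539 ± 544 CPM). *Hmox1*, the heme-degrading enzyme, was at 1072, 1419 and 1825 CPM against 254, 212 and 223.

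Some matrix genes were abundant in the satellite cell libraries, although the list of fibrillar matrix genes was split, 9 higher and 6 lower of 23 (median log2 0.38, about the shift between scalings). *Thbs4*, a thrombospondin of tendon and muscle matrix, was their most abundant mRNA by CPM and the fourth per kilobase, mitochondrially encoded genes left aside, at 11478, 8730.3 and 11323 CPM against 1308, 995 and 1206 in muscle, a log2 difference of 3.17 (SE 0.22, adjusted p = 2.05e-08). Of 8 tendon genes 7 were higher and 0 lower (median log2 1.64). *Fmod*, a collagen-binding proteoglycan, was at 1765, 1210.2 and 1259 CPM against 493, 403 and 447, *Comp* at 353, 169 and 412 against 132, 83.2 and 86.9, *Kera* at 104, 62.9 and 77.5 against 13.3, 19.2 and 33 and *Mkx*, a tendon transcription factor, at 37.3, 18.1 and 14 against 2.76, 2.47 and 1.84. *Scx*, the defining transcription factor of tendon, was at 2.35, 1.13 and 1.29 CPM in satellite cells and 2.76, 4.18 and 1.22 CPM in muscle and did not pass. The tendon list summed to 12142 to 16106 CPM of the library totals in satellite cells and 1407 to 1612 in muscle. *Thbs4* made up most of that sum, and none of the 8 tested members was at 0 in any satellite cell library.

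Markers of fibro-adipogenic progenitors, the fibroblasts of muscle, split. *Dcn* was at 2687, 1919.8 and 2519 CPM in satellite cells and 953, 896 and 1194 in muscle, and *Lox*, which crosslinks collagen, at 666, 561 and 582 against 113, 106 and 129. *Pdgfra*, their defining receptor, was at 32.1, 47 and 37 CPM against 47.2, 59.8 and 63.2, a log2 difference of -0.56 (SE 0.21, adjusted p = 0.0312) that was lost in 6 of 15 alternative fits (with library size alone, -0.16). *Ly6a* and *Pi16*, which mark most and part of these cells, were near 0, at 1.88, 1.61 and 2.02 CPM against 377, 403 and 422 and at 0.157, 0.968 and 0 CPM against 95.5, 63.6 and 138. Without satellite cell library 2, which had most of the *Pi16* counts, its log2 difference came to -9.83 from -7.91. The 16 markers summed to 5287 to 6466 CPM in satellite cells and 3556 to 4315 in muscle, with 3 higher and 10 lower (median log2 -0.94). *Col1a1* was at 1452, 1149 and 2069.9 CPM against 1077, 1036 and 1041, a log2 difference of 0.57 that was lost in 3 of 15 alternative fits, without satellite cell library 1 (0.61) or 3 (0.31) and with the replicate block (0.52). The part of other cells, or of transcripts that they left, in these matrix levels was not tested.

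Of 23 basal lamina genes 8 were higher and 5 lower (median 0.17), beside 28.1% higher and 32.3% lower of all genes tested. *Tnc*, the tenascin of the regenerating niche, was at 610, 653 and 696 CPM in satellite cells and 59.4, 68.9 and 63.6 CPM in muscle, 10.2-fold apart. *Lama2*, the laminin chain of the muscle basement membrane, was at 65.5 ± 3.11 CPM against 29.6 ± 2.33 CPM, while *Lama4*, a laminin chain of vessels, was at 6.31 ± 2.77 CPM against 31.7 ± 6.33 CPM. Of 22 proteases and inhibitors 11 were higher and 6 lower (median log2 0.27). Urokinase and its receptor were high in satellite cells: the enzyme *Plau* was at 368, 366 and 386 CPM against 30.1, 54.5 and 44.5 and its receptor *Plaur* at 269 ± 40.8 CPM against 54.1 ± 6.19 CPM. *Timp1*, an inhibitor of matrix metalloproteinases, was at 960.3 ± 135 CPM against 184 ± 33.1 CPM, and *Mmp9*, which neutrophils carry, had 1 count in satellite cells and 382 in muscle, a ratio of 499 in favour of muscle (interval 89 to 19759).

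Transcripts of the contractile apparatus were far lower in satellite cells. Of 32 sarcomere genes 31 were lower and 1 was higher, with a median log2 difference of -9.85. *Acta1*, skeletal actin and the most abundant mRNA of muscle by CPM, was at 12.1, 14.2 and 13.8 CPM in satellite cells and 64101, 44547 and 59543 CPM in muscle. *Ckm*, the muscle creatine kinase, was at 6.89, 8.07 and 5.89 CPM against 35181, 23923 and 31819.8, and *Myh4*, the myosin of the fastest fibres, at 2.35, 1.77 and 1.29 against 16519.7, 14201 and 18458. These differences were 4194-fold, 4334-fold and 8868-fold, with no library out of place.

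Among the genes furthest below muscle, *Mybpc2*, a myosin-binding protein of fast fibres, had 6 counts in satellite cells and 59036 in muscle. *Tnnt3*, *Tnni2*, *Pvalb* and *Car3*, all known from fast or slow fibres, were at 2.73, 1.61, 0.877 and 0.537 CPM on average in satellite cells, against 13710.1, 7133, 4391 and 3105 in muscle. *Myot*, a protein of the Z-disc, and *Fbxo40*, a ubiquitin ligase subunit of muscle, had no counts in satellite cells and were at least 3629.5-fold and 1405-fold lower. These bounds set the satellite cells at 3 counts in all. *Actc1*, the cardiac actin of young fibres, also had none and was at least 2014-fold lower, a call that was lost without a filter on low counts (adjusted p = 0.0776). *Xirp2* had 2 counts against 13734, a ratio of 8969.7 (interval 2483 to 74073), and *Csrp3* 3 against 14983, a ratio of 6524 (interval 2232 to 31637).

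*Des* and *Flnc*, which myoblasts are known to make as well, were also lower, by far less than the list's median. *Des*, the muscle intermediate filament, was at 1896, 2088 and 3049 CPM in satellite cells against 8167, 5908 and 6105, and *Flnc*, filamin C, at 685, 792 and 1068 against 4544, 3693 and 3257. *Tpm3*, whose gene also encodes cytoskeletal tropomyosins, was the single higher member, at 381 ± 21.3 CPM against 201 ± 10.2 CPM. The counts are per gene and do not separate the isoforms.

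The promoter of *Myh4* is shown as the counterpart of the replication promoters (GRCm38.p6, chr11:67237562-67237811, plus strand). Capitals mark TATAAA, the letters of a TATA box, and CAGCTG, an E-box that myogenic factors are known to bind, on either strand.
Myh4: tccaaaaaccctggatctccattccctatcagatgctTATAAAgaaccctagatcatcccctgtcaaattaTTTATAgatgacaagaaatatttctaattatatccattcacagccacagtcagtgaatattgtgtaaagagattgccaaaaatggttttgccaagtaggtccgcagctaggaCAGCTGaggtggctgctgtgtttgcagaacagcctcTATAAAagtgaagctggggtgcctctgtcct
It holds 3 matches of TATAAA and 1 of CAGCTG. The promoter of *Mylpf*, another sarcomere gene that was searched and is not shown, holds 0 of TATAAA and 1 of CAGCTG. The E-box letters were in 9 of 24 sarcomere promoters in the table (37.5%) and in 14.7% of promoters of tested genes, and TATAAA in 5 of 24 (20.8%) and in 8.45%. Among genes 4-fold or more lower the shares were 21.2% for CAGCTG and 12.6% for TATAAA, and among genes 4-fold or more higher 15.7% and 10.1%.

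Genes of calcium handling and energy supply were lower too. Of 18 calcium genes 17 were lower (median log2 -7.05), with *Atp2a1*, the calcium pump of fast fibres, at 21.9, 24.4 and 35.9 CPM against 47797, 35012 and 45728. Of 26 genes of glycolysis and phosphate transfer 23 were lower and 2 higher (median log2 -3.96). The enolases went in opposite directions: *Eno3*, of muscle, was at 33, 29.5 and 44.9 CPM against 8549.9, 5395 and 7077, and *Eno1*, of most other cells, at 539, 529.5 and 767 against 192, 213 and 172. *Pkm* and *Ldha* were lower by a smaller margin, 3.27-fold and 2.67-fold.

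Nuclear genes of the respiratory chain were lower in 31 of 34, with a median of -1.43. Here too the muscle isoforms led: *Cox6a2* was at 0.739 ± 0.707 CPM against 673 ± 144 CPM (log2 -9.72, and -10.54 without satellite cell library 1), while *Cox6a1*, its counterpart in other tissues, was higher, at 243 ± 50.6 CPM against 104 ± 6.08 CPM. Of 10 mitochondrially encoded genes 8 were lower (median log2 -2.40). *mt-Co1* was at 1098, 1279 and 328 CPM in satellite cells and 4178, 10053 and 10508 in muscle, and within each group 1 library stood low (satellite cell library 3 and muscle library 1). This call was lost without a filter on low counts (adjusted p = 0.0674). *Ppargc1a*, a coactivator that raises mitochondrial content, was at 4.85, 1.94 and 12 CPM against 48, 41.8 and 37.3, a log2 difference of -2.78 (-3.62 without satellite cell library 3), and *Cpt1a*, the fatty acid transporter enzyme of non-muscle mitochondria, was higher at 113 ± 14.7 CPM against 30.3 ± 2.08 CPM. *Trim63* and *Fbxo32*, the ubiquitin ligases of muscle atrophy, were at 0.545 ± 0.214 CPM against 815 ± 149.9 CPM and 6.24 ± 0.634 CPM against 531 ± 125 CPM.

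**Figure D3:**
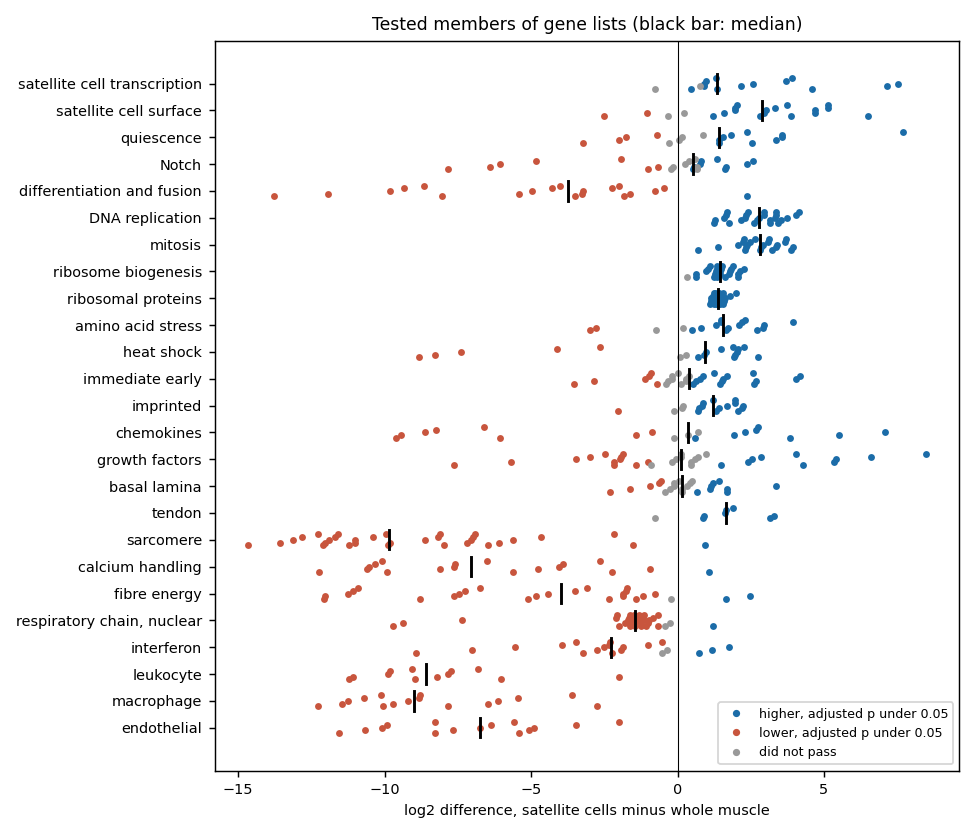
Each point is the log2 difference, satellite cells minus whole muscle, of 1 tested member of a gene list, with a black bar at the list's median. Blue points passed as higher, red as lower and grey did not pass: every member of DNA replication, mitosis and ribosomal proteins is blue, and every leukocyte, macrophage and endothelial member is red.

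Markers of the blood, vessel and fat cells that injured muscle contains were lower in the sorted cells, most of them far lower. All 12 pan-leukocyte genes, 16 macrophage genes, 15 endothelial genes, 10 neutrophil genes and 7 genes of antigen presentation on class II that were tested were lower, with medians of -8.58, -9.00, -6.73, -6.37 and -7.61. Members near 0 in satellite cells passed the filter through muscle alone, so their direction was fixed in advance. Of 15 neutrophil markers 10 were tested. Among the rest *Camp* had 16 counts in satellite cells and 11 in muscle, while *Ly6g*, *Retnlg*, *Ngp* and *Ltf* had fewer in satellite cells. With genes at 0 set to their bound, the leukocyte and macrophage medians were -8.26 and -7.88. *Ptprc*, the common leukocyte antigen, had 3 counts in the satellite cell libraries and 637 in muscle, where it was at 17.9, 65.5 and 46.3 CPM, a ratio of 277 in favour of muscle (interval 94.5 to 1348). *C1qa* and *H2-Aa*, of macrophages and antigen-presenting cells, had no counts and were at least 705-fold and 1442-fold lower. *Hp* and *Cfd*, of neutrophils and fat, were at least 1651-fold and 1164-fold lower. *Adgre1* was at 0, 0 and 2.58 CPM in satellite cells and *Lyz2* at 0, 0 and 4.23, so the reads of these macrophage genes lay in library 3. *Pecam1*, of endothelium, was at 0.313, 0.323 and 0.92 CPM against 191, 171 and 128 (log2 -8.28, and -8.90 without satellite cell library 3), and *Cd36*, a fatty acid carrier of vessels and fibres, at 0.341 ± 0.298 CPM against 226 ± 41.5 CPM.

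The macrophage list summed to 19.9 to 27.7 CPM of the library totals in satellite cells against 1361 to 3141 in muscle, and the endothelial list to 24.9 to 33.3 against 837 to 1050.2. The neutrophil list was less depleted, at 46.8 to 99.6 against 426 to 669.9, and so was the adipocyte list, at 78.1 to 89.7 against 477 to 676. In satellite cells most of the first sum was *Lcn2*, a secreted binder of iron carriers that other cells make too (60.1 ± 23.3 CPM against 354 ± 67.6 CPM), and most of the other was *Pnpla2*, a lipase that fibres also make (72.4 ± 8.63 CPM against 268 ± 56.9 CPM). Mural cells, which wrap vessels, were less clear: *Rgs5* was at 1.02 ± 0.391 CPM against 96.8 ± 24.5 CPM but *Acta2*, smooth muscle actin, which myoblasts also make, at 247, 234 and 462 CPM against 104, 104 and 108. Interferon-induced genes were lower in 15 of 20 (median -2.27), for example *Irf7* at 7.29 ± 1.01 CPM against 36.5 ± 6.5 CPM and *Oasl2* at 7.02 ± 2.01 CPM against 47.6 ± 5.19 CPM, while *Irf1* was higher at 49.1 ± 9.99 CPM against 29.6 ± 5.26 CPM, a log2 difference of 0.74 that no longer passed without satellite cell library 2 (0.59).

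**Figure D4:**
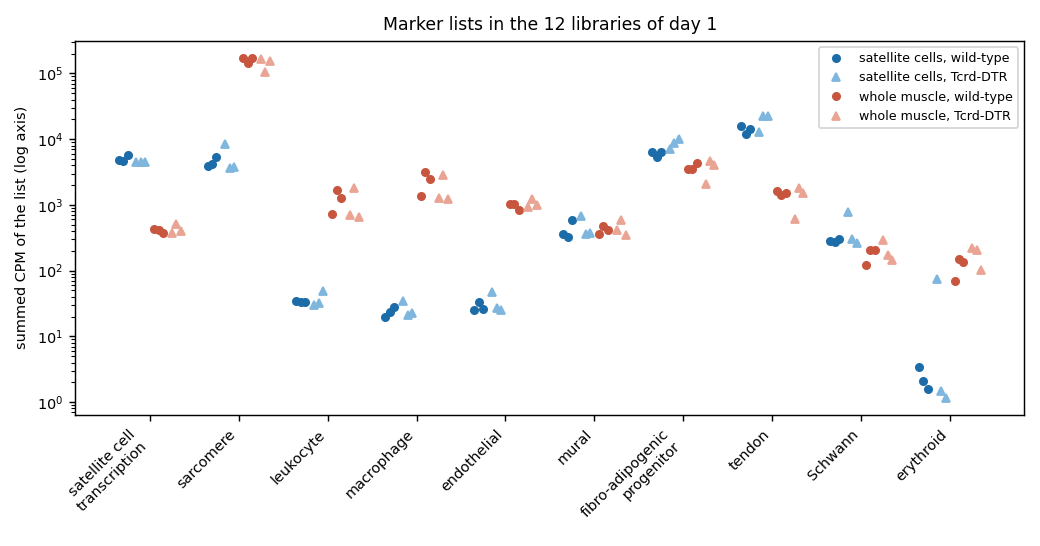
Summed CPM of 10 marker lists on a log axis in each of the 12 libraries of day 1, with satellite cells in blue, whole muscle in red, wild-type as circles and Tcrd-DTR as triangles. Leukocyte, macrophage and endothelial sums lie more than 10-fold lower in all satellite cell libraries, tendon sums lie higher, and 1 Tcrd-DTR satellite cell library stands out for sarcomere, Schwann and erythroid genes.

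Whole muscle at later days places the satellite cell levels in time. These values are CPM of the library totals in wild-type tissue, given as mean ± SD of 3 libraries, and were not tested. *Myod1* was at 117 ± 28.4, 266 ± 21.7, 51.8 ± 6.46 and 42 ± 6.24 CPM at days 1, 3, 7 and 14, against 3717 ± 561 in satellite cells of day 1. *Pax7* was at 1.63 ± 0.0991, 8.17 ± 2.48, 3.57 ± 0.935 and 2.17 ± 1.74 CPM at those days, against 28.4 ± 7.53. Among the 4 days the tissue mean of both was highest at day 3, and it was still far below the sorted cells. *Myog*, at 8.89 ± 7.93 CPM in the sorted cells, went from 31.5 ± 11.1 CPM in tissue at day 1 to 411 ± 48.1 at day 3.

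*Erfe* was at 2.03 ± 1.24, 4.33 ± 2.53, 0.698 ± 0.49 and 0.913 ± 0.555 CPM in tissue at days 1, 3, 7 and 14, against 1052 ± 79.5 in satellite cells, so no day of tissue came near the sorted cells. *Gal* was at 3.74 ± 1.08 CPM in tissue at day 1 and 137 ± 29 at day 3, against 653 ± 74.3 in satellite cells. *Thbs4* was at 1003 ± 82.6 CPM in tissue at day 1 and 142 ± 41.2 at day 14. *Mki67* was at 8.58 ± 1.68 CPM in tissue at day 1 and 104 ± 31.8 at day 3, against 59.2 ± 4.83 in satellite cells of day 1. *Mcm2*, a further helicase subunit, was at 35.5 ± 3.35 and 125 ± 29.7 CPM in tissue, against 487 ± 41.2. By day 3 the mean of the proliferation marker in tissue was above that of the sorted cells of day 1, and that of the helicase gene was not.

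The same comparison in Tcrd-DTR mice used no library of the first. Of 13482 genes tested 3507 were higher in satellite cells (26%) and 4008 lower (29.7%). Both genotypes called 3059 genes higher (83.3% of the wild-type calls, 87.2% of the Tcrd-DTR calls) and 3328 lower (79% and 83%), and no gene was called in opposite directions. *Pax7* differed by 3.71 in wild-type and 3.80 in Tcrd-DTR mice on the log2 scale, *Myod1* by 4.59 and 4.55, *Erfe* by 8.61 and 8.67 and *Thbs4* by 3.17 and 3.89. Other named genes were further apart: *Myf5* differed by 7.54 and 5.59, *Lif* by 8.47 and 6.35, *Chrdl2* by 7.71 and 6.34 and *Cxcl1* by 7.09 and 6.12, each called higher in both genotypes. The first 3 of these rest on few muscle counts, and none of the 4 passed the interaction test (edgeR adjusted p = 1.00 for each). Unadjusted, the edgeR interaction p was 0.0037 for *Myf5*, 0.31 for *Lif*, 0.042 for *Chrdl2* and 0.012 for *Cxcl1*. Of the 16 markers of fibro-adipogenic progenitors 10 were lower in wild-type and 5 in Tcrd-DTR mice, with medians of -0.94 and -0.01, a difference that was not tested as a list. The replication list was again higher in 25 of 25, with a median of 2.63.

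Sarcomere genes differed by less in Tcrd-DTR mice, and the levels of 1 library went with this. *Acta1* was at 1414, 19.2 and 13.9 CPM in the 3 Tcrd-DTR satellite cell libraries, so library 1 held far more than the others, and 24 of 32 sarcomere genes passed as lower, with a median of -6.48. Without that library 31 of 32 passed, with a median of -10.09. Library 1 also held more of the Schwann cell list (793 CPM of the library total, against 298 and 265) and of the erythroid list (74.2 against 1.46 and 1.16). Of the Tcrd-DTR muscle libraries, library 2 stood apart. Its sarcomere list summed to 104575 CPM, against 168778 and 153155, and its leukocyte list to 1823, against 701 and 666. Its olfactory and vomeronasal genes summed to 2880 CPM, against 1072 and 1108. Without it the Tcrd-DTR calls were 3608 higher and 4129 lower. The interaction of material with genotype, tested in edgeR over 14570 genes and 12 libraries, gave 0 genes past the threshold (602 at an unadjusted p under 0.05, smallest adjusted p 0.667), and DESeq2 gave 4. With no filter on low counts edgeR gave 43 higher and 2 lower.

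**Figure D5:**
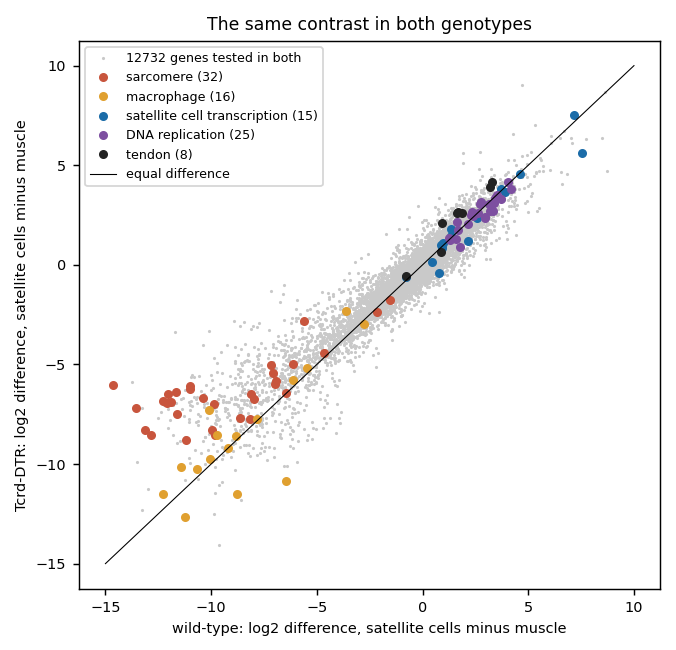
Log2 difference, satellite cells minus whole muscle, in wild-type (horizontal) and Tcrd-DTR mice (vertical) for the 12732 genes tested in both, with 5 gene lists in colour and a line of equal difference. Most genes lie along the line, and most sarcomere genes lie above it, nearer to 0 in Tcrd-DTR.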

How the data were processed

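Bulk polyA RNA-seq of 39 libraries was deposited as raw counts per gene symbol. Per the submitters' processing notes, STAR 2.7.3a, Subread 2.0.0, featureCounts and the mm10 build were used; how strand and multiple hits were counted is not given in the sources used here. Columns were matched to samples by title, with 0 left unmapped. The labels call the libraries independent biological replicates, and nothing further says how animals fell into them, so p-values measure the spread between these libraries.

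From the deposited counts, genes with 10 or more counts in at least 3 of the 6 libraries were tested with edgeR 4.0.16 (R 4.3.3; quasi-likelihood, robust, TMM scaling, Benjamini-Hochberg adjusted over all genes tested, threshold 0.05). CPM are TMM-scaled; list sums and levels by day use plain library totals. Standard errors were taken from the F statistic. The tests were also run on simulated counts, where few genes changed and by 4-fold at most. That setting differs from these data, so it does not check the scaling or the error rate here. Transcript lengths came from GENCODE M21, promoters from RefSeq (GRCm38.p6). DESeq2 1.42.0, other scalings and filters, a length and GC offset, the replicate block and leaving out each library were alternatives. A fold against 0 counts is a bound against 3 counts over the group; ratios with 1 to 3 counts have exact 95% intervals, which cover counting error only.

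The members and lists were chosen with earlier results of these data known. Named genes are the 15 largest differences in each direction past the threshold, at 20 CPM or more and without overlap, up to 5 of each list by smallest p, list members needed to describe a group, and 16 fixed lineage and cell type genes. A few genes that the rule takes are not reported here.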

Additional observations from a re-analysis of the deposited data

How the results depend on the processing

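The wild-type counts of 3672 higher and 4210 lower genes stayed within 1.5 times under every alternative run. They were 3402 and 3938 with the replicate number as a block, 4041 and 5536 with no filter on low counts, 5174 and 3130 under library size alone, and 3451 and 4188 with DESeq2. Leaving out 1 library gave 3244 to 3716 higher and 3660 to 4217 lower. Same-numbered satellite cell and muscle libraries did not deviate together (correlations of -0.16, 0.11 and -0.19), and not every library correlated best with its own number, so the block is a number only. Leaving out 1 library of the Tcrd-DTR comparison gave 2911 to 3608 higher and 3360 to 4129 lower, and no filter gave 6361 lower. The interaction gave 43 higher and 2 lower genes with no filter, 3 higher and 1 lower with DESeq2, and 0 to 2 higher and 0 lower with 1 library left out (2 without Tcrd-DTR satellite cell library 3, 1 without wild-type satellite cell library 3). The cause was not tested. Depth limits genes below about 10 counts, and with 3 libraries per group small differences near the scaling shift remain uncertain. The sorted cells and the tissue differ in handling and input in all libraries.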

Other observations

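Genes of the dystrophin-associated complex and membrane repair, which tie the fibre's skeleton to the matrix, were divided in satellite cells, 5 higher and 13 lower of 24 tested in edgeR (median log2 -0.82). *Dag1*, dystroglycan, the laminin receptor at the centre of the complex, was at 631, 695 and 968 CPM in satellite cells and 207, 186 and 200.2 CPM in muscle, above it in every library. *Sgca*, a sarcoglycan and partner of the complex in fibres, was lower, at 36.2 ± 13.3 CPM against 219.7 ± 24.1 CPM. *Dysf*, which reseals the torn fibre membrane, was at 0.834 ± 0.315 CPM against 109 ± 12.9 CPM, and *Cav3*, of the fibre's caveolae, at 5.61 ± 3.02 CPM against 171 ± 66.2 CPM. *Anxa5* and *Anxa1*, calcium-dependent membrane binders of many cells, were higher, 3.27-fold and 2.17-fold.

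Clock genes were split, 4 higher and 6 lower of 15 (median log2 0.33). The repressors *Per2* and *Per1* were at 30.1, 43.6 and 35 CPM and 88.5, 96 and 143 CPM in satellite cells, against 4.69, 8.16 and 7.14 and 56.6, 29.4 and 38.5 in muscle. *Dbp* and *Tef*, output factors of the clock, were lower, at 2.43 ± 0.965 CPM against 10.8 ± 1.76 CPM and 27.6 ± 2.79 CPM against 62.4 ± 9.01 CPM, as was *Bhlhe40*, at 101 ± 24 CPM against 311 ± 30.2 CPM. The hour at which each material was taken is not given in the sources used here, and its part in these values was not tested.

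Among 16 autophagy genes 1 was higher and 10 lower (median log2 -0.80). *Tfeb*, which controls lysosomal genes, was at 1.41, 1.29 and 3.13 CPM against 45, 41.8 and 43.8, and *Pink1*, which marks damaged mitochondria, at 10, 7.58 and 16.2 CPM against 272, 202 and 192. Of 20 antioxidant genes 7 were higher and 6 lower (median log2 0.25). *Txn1*, thioredoxin, was higher at 760.2 ± 53.5 CPM against 240.1 ± 5.72 CPM, and *Cat*, catalase, lower at 54.4 ± 3.85 CPM against 131 ± 16.2 CPM. Of 12 genes of class I antigen presentation 1 was higher and 5 were lower (median log2 -0.60), with the immunoproteasome subunit *Psmb8* at 14.7 ± 4.76 CPM against 60.3 ± 10.1 CPM. Beside these counts, 28.1% of all genes tested were higher and 32.3% lower. Of 8 polyamine genes 2 were higher and 3 lower (median log2 -0.14), with spermidine synthase, *Srm*, at 519, 503 and 856 CPM in satellite cells against 143, 157 and 111 in muscle.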
